A study of Mus musculus with 4 samples.

Results

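Myc and 37 genes of ribosome biogenesis were followed in cells sorted from mouse skin tumours, 38 genes of the 22222 in the deposited table. They were picked by name, and every symbol was found. No measured value was part of the choice, but earlier results of these data were known when it was made. The samples were keratoacanthomas, skin tumours that can regress on their own, induced with DMBA, a polycyclic hydrocarbon that causes skin cancer, given for 20 weeks. In 2 mice tumours were collected 1 week after DMBA was stopped, and in 2 other mice while DMBA was still applied (week 0). RNA from cells that were Tomato positive and P-cadherin positive was depleted of ribosomal RNA and sequenced, so by their labels all 4 libraries share the tumour model, the 20 weeks of DMBA and the sort gate. The sources used here do not give the strain, the age or the promoter that drives Tomato. Each library is 1 mouse by its identifier, and the p-values below rest on the spread between these mice, moderated by a trend of the variance over all genes.

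Ribosomes are assembled in the nucleolus. RNA polymerase I copies the ribosomal RNA genes into a long precursor, small nucleolar ribonucleoproteins (snoRNPs) modify it, and assembly factors cut it and fold it with ribosomal proteins into the small and the large subunit. MYC, a transcription factor that growth signals induce, activates many genes of this pathway, and growing basal keratinocytes use it heavily.

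Levels are given as scaled CPM, a gene's reads set against a scaled library size. Values are listed with replicate 1 before replicate 2. MYC binds the E-box, the letters CACGTG, which read the same on both strands. Because the genes below vary together between libraries, their promoters (250 bases before to 50 after the start site, RefSeq, GRCm38.p6) were searched for these letters. Of the 38 genes, 32 had a promoter entry, and Myc, Npm1, Fbl, Rrp12, Bop1 and Rrs1 had none. The letters were in 8 of the 32 (25%), against 8.09% of all 27025 genes with an entry and 11.2% of the 10849 of them that were tested. The sites are printed on the strand of the gene with the E-box in capitals.
Rrn3 (chr16:13780472-13780501, plus strand): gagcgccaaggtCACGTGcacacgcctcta
Rrn3 (chr16:13780639-13780668, plus strand): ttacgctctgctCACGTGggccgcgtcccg
Mybbp1a (chr11:72441355-72441376, plus strand): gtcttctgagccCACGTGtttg
Utp18 (chr11:93885769-93885798, minus strand): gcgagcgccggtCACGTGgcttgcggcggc
Utp20 (chr10:88826765-88826789, minus strand): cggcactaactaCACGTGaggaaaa
Wdr43 (chr17:71616220-71616249, plus strand): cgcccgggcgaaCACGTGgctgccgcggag
Tsr1 (chr11:74898092-74898121, plus strand): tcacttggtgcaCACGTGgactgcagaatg
Pes1 (chr11:3963965-3963994, plus strand): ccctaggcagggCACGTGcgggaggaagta
Nop2 (chr6:125131811-125131840, plus strand): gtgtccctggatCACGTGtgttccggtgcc
The E-box starts 215 and 48 bases before the start site in Rrn3, 60 bases before it in Nop2 and 20 bases before it in Utp18, and in the other 5 it lies after the start site. A match is a description of the letters, not evidence of binding. The 8 genes with the letters had a median log2 difference between the groups of -0.55 (range -0.948 to -0.147). The 24 without them had -0.68 (range -1.466 to -0.095). Without on-DMBA replicate 1 these medians were 0.449 and 0.382, so their sign hung on 1 library. Whether the E-box bears on the levels was not tested.

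Markers of the sorted cell type and of other cell types differed widely between the libraries. The 10 epithelial and sort markers, summed, were at 4492 and 3510 scaled CPM at 1 week, against 46470 and 549.9 on DMBA, and all 10 were highest in on-DMBA replicate 1. Leukocyte and myeloid markers (9 in the table) summed to 5322 and 9898 at 1 week, against 9.97 and 13468 on DMBA. Fibroblast markers (9) summed to 48353 and 50816 at 1 week, against 184 and 42115 on DMBA, and endothelial markers (5) to 454 and 932 at 1 week, against 4.87 and 139 on DMBA. No marker of the 4 lists was at 0 in any library, and the most abundant of each list were Krt14, Lyz2, Col3a1 and Pecam1. Cdh3, the gene of the P-cadherin used in the sort, had 42.8 and 30.4 scaled CPM at 1 week, against 325 and 3.23 on DMBA, and the myeloid gene Lyz2 had 3112 and 6663 scaled CPM at 1 week, against 1.19 and 8839 on DMBA. On-DMBA replicate 2 had the lowest Cdh3 and the highest Lyz2 level, which goes against its label of P-cadherin-positive cells. Both 1-week libraries also went against that label, with fibroblast and leukocyte sums above their own epithelial sums. The group differences are also given without on-DMBA replicate 2, which sets both 1-week libraries against on-DMBA replicate 1 alone. On-DMBA replicate 1 had the highest epithelial sum and the lowest sum of each other cell type. The part these cells play in the levels of the ribosome biogenesis genes was not tested. In such sorted bulk samples fewer cells of a type and less RNA per cell cannot be told apart.

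All 38 genes had their highest level in on-DMBA replicate 1. Among the 15419 genes tested, 41.7% did. Of the 38, 37 were next highest in 1-week replicate 2, an order of the top 2 libraries that 24.8% of genes tested had, and the exception was Myc. The other 2 libraries, 1-week replicate 1 and on-DMBA replicate 2, held the lowest levels of these 37 genes, 15 with the minimum at 1 week and 22 with the minimum on DMBA. The groups therefore overlapped for each of the 38 genes. Both 1-week mice lay above the on-DMBA pair for 0 of them, against 14.0% of genes tested, and below that pair for 0 of them, against 9.14%.

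**Figure D1:**
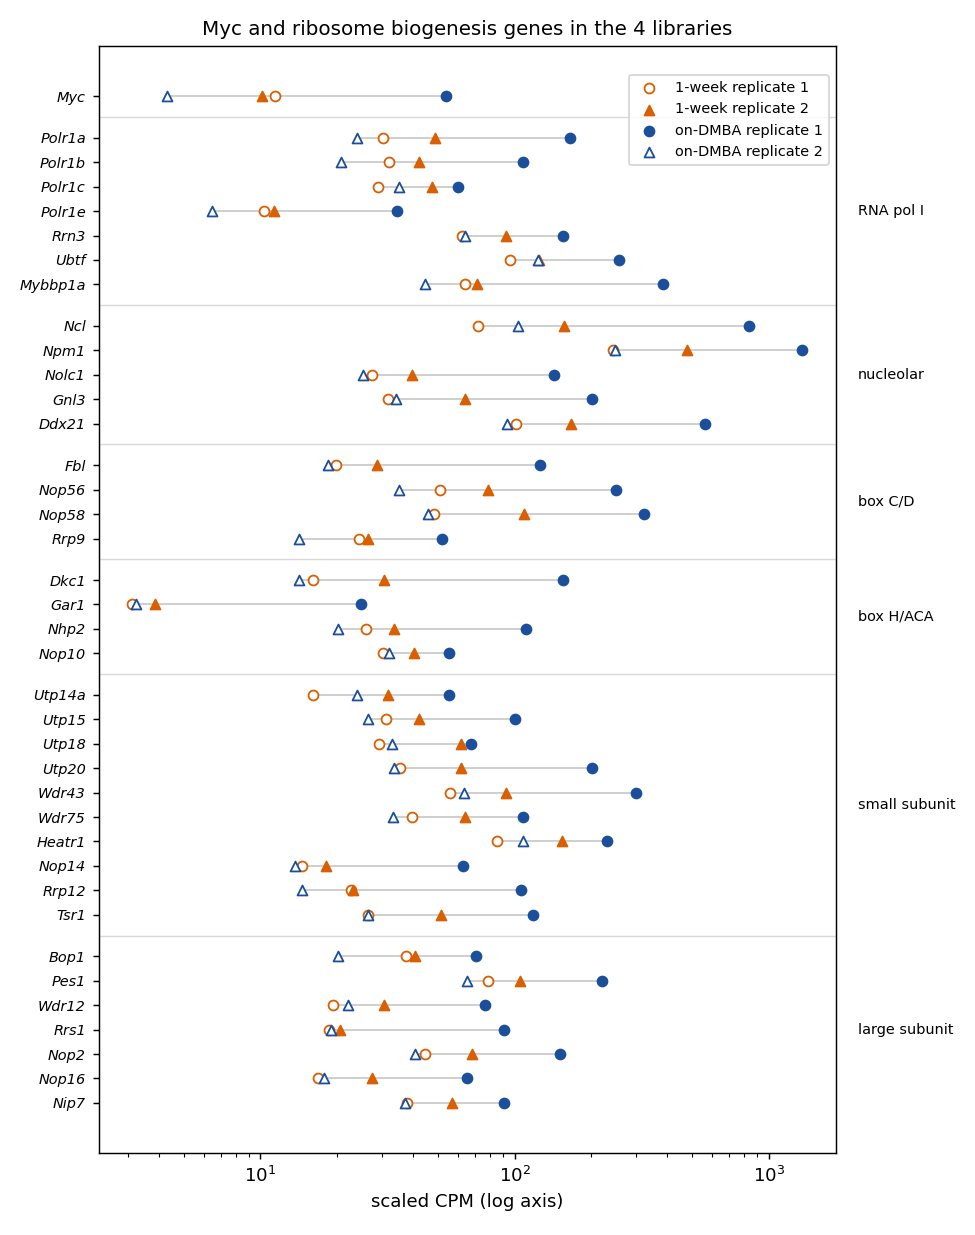
Level of Myc and the 37 ribosome biogenesis genes in each library, in scaled CPM on a log axis, with 1 row per gene, grouped by role. Points are single libraries, 2 from mice 1 week after DMBA and 2 from mice on DMBA. The filled blue circle, on-DMBA replicate 1, is the rightmost point in all 38 rows, and the filled orange triangle, 1-week replicate 2, comes next in 37 of them.

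Taken as a sum, the 37 ribosome biogenesis genes reached 1629 and 2641 scaled CPM in the 1-week libraries, against 7476 and 1605 in the on-DMBA libraries. The group means were 2135 ± 715 at 1 week and 4540 ± 4152 on DMBA (SD, n = 2 each), so the gap between the on-DMBA mice exceeded the gap between the group means. As a share of recovered reads the sums were 0.188% (95% exact binomial interval 0.184 to 0.191) and 0.242% (0.238 to 0.245) at 1 week, against 0.650% (0.645 to 0.656) and 0.159% (0.155 to 0.162) on DMBA. The share was highest in on-DMBA replicate 1, and no 2 of the 4 intervals overlapped. The intervals cover counting error only and leave out the spread between mice. Reads were also not tied to single molecules.

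Myc, the transcription factor, had 11.4 and 10.1 scaled CPM in the 1-week libraries, against 53.8 and 4.31 in the on-DMBA libraries. These rest on 73 and 71 reads at 1 week, against 453 and 24 on DMBA. The 1-week mice were close to each other, at 10.8 ± 0.907 scaled CPM, and both lay between the on-DMBA mice, which averaged 29.0 ± 35.0 (SD, n = 2 each). The gap between the on-DMBA libraries was 12.5-fold, wider than for any of the 37 other genes. Between the groups Myc gave a log2 difference of -0.52 (SE 1.22, limma unadjusted p = 0.687), which did not pass. Myc was the only one of the 38 genes with a higher level in 1-week replicate 1 than in 1-week replicate 2. Its order over the 4 libraries was that of the summed epithelial markers, a sum led by Krt14. Of the 10 single markers, 5 were next highest in 1-week replicate 2 instead, among them Krt5 and Epcam. Against on-DMBA replicate 2 alone, Myc was 2.65-fold and 2.35-fold higher in the 1-week libraries. Its log2 difference without on-DMBA replicate 1 was 1.23. On-DMBA replicate 2 had the lowest epithelial marker sum, 549.9 scaled CPM against 4492 and 3510 at 1 week. What part this played in the Myc level was not tested.

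Of the partners and rivals of MYC, 13 genes of the network were in the table, 11 were tested, and 0 passed. In 6 of the 11 the highest level was in on-DMBA replicate 1, against 41.7% of all genes tested. Both 1-week libraries were above both on-DMBA libraries for 2 of the 11 and below them for 2, against 14.0% and 9.14% of genes tested. Their summed level hardly differed between libraries, at 450.3 and 489.6 scaled CPM at 1 week, against 491.8 and 456.2 on DMBA. This sum pools genes that differed in opposite directions between the on-DMBA libraries, such as Mxd4 and Mycl1. Mxd4 had 61.0 and 76.0 scaled CPM at 1 week, against 35.4 and 96.4 on DMBA. Max, the obligate partner of MYC, had 19.1 and 23.1 scaled CPM at 1 week, against 32.1 and 23.5 on DMBA, lower at 1 week without overlap of the groups. Of the MYC antagonists, Mxd1 and Mxi1 were higher at 1 week without overlap and Mxd3 was lower without overlap. Mxi1 had 111 and 83.7 scaled CPM at 1 week, against 79 and 61.9 on DMBA. Mxd3 had 5.47 and 4.85 scaled CPM at 1 week, against 8.07 and 6.10 on DMBA. Mxd1 had 42.8 and 33.5 scaled CPM at 1 week, against 21.6 and 30.5 on DMBA, a log2 difference of 0.55 (SE 0.53, limma unadjusted p = 0.342) that did not pass. Mga, a large MAX-binding protein, had 107 and 168 scaled CPM at 1 week, against 195 and 148 on DMBA. The paralogue Mycn had 7.97 and 3.28 scaled CPM at 1 week, against 4.28 and 4.13 on DMBA, and Mycl1 had 9.69 and 6.42 scaled CPM at 1 week, against 18.6 and 2.69 on DMBA. Max, Mxd3, Mxd4, Mycn and Mycl1 were named after their values were seen.

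RNA polymerase I and its initiation factors make the precursor of ribosomal RNA. Polr1a, the largest catalytic subunit, had 30.3 and 48.8 scaled CPM in the 1-week libraries, against 165 and 24.1 in the on-DMBA libraries. Polr1b, the other large catalytic subunit, had 32 and 42.1 scaled CPM at 1 week, against 108 and 20.8 on DMBA. Both fell into the order that most of the 38 genes shared, with the minimum in on-DMBA replicate 2. Polr1e, a subunit particular to polymerase I, had 10.3 and 11.3 scaled CPM at 1 week, against 34.4 and 6.46 on DMBA, again with that minimum. Polr1c, a subunit shared with RNA polymerase III, had 29.1 and 47.5 scaled CPM at 1 week, against 59.8 and 35 on DMBA, and the 1.71-fold gap between its on-DMBA libraries was the smallest of all 38 genes. Rrn3, which ties the polymerase to the promoter, had 62.2 and 92.7 scaled CPM at 1 week, against 156 and 64.1 on DMBA. Ubtf, which binds the promoter of the ribosomal RNA genes, had 95.6 and 125 scaled CPM at 1 week, against 258 and 123 on DMBA. For Rrn3 and Ubtf the minimum was in 1-week replicate 1, and on-DMBA replicate 2 lay within the range of the 1-week mice. Ubtf gave a log2 difference of -0.70 (SE 0.60, limma unadjusted p = 0.29). Mybbp1a, a nucleolar protein first known as a partner of MYB, had 63.9 and 71.5 scaled CPM at 1 week, against 384 and 44.3 on DMBA, with an 8.67-fold gap between the on-DMBA libraries.

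Rn45s is the entry of the ribosomal RNA precursor, and it held reads although ribosomal RNA was removed before sequencing. Precursor and mature ribosomal RNA were not told apart in these reads, so they do not measure the output of RNA polymerase I. Rn45s had 34232 and 36558 scaled CPM at 1 week, against 70957 and 48224 on DMBA. Both 1-week levels were below both on-DMBA levels, which was the case for none of the 38 genes and for 9.14% of all genes tested. Its group means were 35395 ± 1644 at 1 week and 59590 ± 16075 on DMBA (SD, n = 2 each), with a log2 difference of -0.73. Limma gave it an SE of 4.23 (unadjusted p = 0.87), which comes from the variance trend at the highest levels, since the 4 libraries alone give an SE of 0.283. How evenly ribosomal RNA was removed from the libraries was not tested.

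Abundant nucleolar proteins hold the compartment together and chaperone its particles. Ncl, nucleolin, which binds the ribosomal RNA precursor, had 71.9 and 156 scaled CPM in the 1-week libraries, against 835 and 103 in the on-DMBA libraries. It was thus highest in 1 mouse on DMBA and lowest in 1 of the mice at 1 week, and gave a log2 difference of -1.47 (SE 1.11, limma unadjusted p = 0.241), the most negative of the 38 genes, with the smallest p. Npm1, nucleophosmin, a histone and ribosome chaperone, had 244 and 476 scaled CPM in the 1-week libraries, against 1357 and 249 in the on-DMBA libraries. The level of Npm1 in on-DMBA replicate 2 and in 1-week replicate 1 was nearly equal, and it gave a log2 difference of -0.77 (SE 1.01, limma unadjusted p = 0.478). Ddx21, an RNA helicase that acts in ribosomal RNA transcription and processing, had 102 and 167 scaled CPM at 1 week, against 562 and 93.5 on DMBA. Gnl3, the GTPase nucleostemin, had 31.7 and 63.6 scaled CPM at 1 week, against 201 and 34.3 on DMBA. Nolc1, a chaperone of snoRNPs, had 27.5 and 39.7 scaled CPM at 1 week, against 143 and 25.3 on DMBA. In each of these 5 genes 1-week replicate 2 was above on-DMBA replicate 2. Their median log2 difference was -0.86 with all 4 libraries and 0.39 once on-DMBA replicate 1 was left out.

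The box C/D snoRNPs add methyl groups to the precursor. Fbl, fibrillarin, their methyltransferase, had 19.8 and 28.7 scaled CPM in the 1-week libraries, against 126 and 18.5 in the on-DMBA libraries, and gave a log2 difference of -1.01 (SE 0.99, limma unadjusted p = 0.353). Its scaffold partners Nop56 and Nop58 are paralogues. Nop56 had 50.8 and 78.4 scaled CPM at 1 week, against 250.2 and 35.2 on DMBA. Nop58 had 48.3 and 109 scaled CPM at 1 week, against 323 and 45.6 on DMBA. The on-DMBA libraries differed 7.11-fold for Nop56 and 7.09-fold for Nop58, and Nop58 also had the widest gap between the 1-week libraries, 2.26-fold in favour of replicate 2. Rrp9, which binds the U3 snoRNA, had 24.4 and 26.5 scaled CPM at 1 week, against 51.8 and 14.2 on DMBA, and its 1-week levels were 1.72-fold and 1.87-fold that of on-DMBA replicate 2.

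The box H/ACA snoRNPs turn uridines into pseudouridines. Dkc1, dyskerin, the pseudouridine synthase, had 16.1 and 30.5 scaled CPM in the 1-week libraries, against 155 and 14.2 in the on-DMBA libraries. Its 10.9-fold gap between the on-DMBA libraries was the widest of the 37 ribosome biogenesis genes. Gar1 had 3.13 and 3.85 scaled CPM at 1 week, against 24.8 and 3.23 on DMBA, from 20 and 27 reads at 1 week, against 209 and 18 on DMBA, the fewest reads of the 38 genes in every library. The 3 lower libraries of Gar1 lay within 1.23-fold, and it gave a log2 difference of -1.29 (SE 1.07, limma unadjusted p = 0.281). Nhp2 had 25.9 and 33.5 scaled CPM at 1 week, against 111 and 20.3 on DMBA. Nop10, the smallest core protein, had 30.5 and 40.2 scaled CPM at 1 week, against 55.1 and 31.9 on DMBA. The on-DMBA libraries differed 5.48-fold for Nhp2 and 1.72-fold for Nop10, so over the 4 core proteins this factor ran between 1.72 and 10.9.

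The small subunit processome is the large particle in which the small subunit forms. Utp15, Wdr43, Wdr75 and Heatr1 belong to its earliest group, which in human cells also acts in transcription of the ribosomal RNA genes. Utp15 had 31.1 and 42.1 scaled CPM at 1 week, against 101 and 26.6 on DMBA. Wdr43 had 55.5 and 93 scaled CPM at 1 week, against 299.8 and 63.5 on DMBA, and gave a log2 difference of -0.94 (SE 0.87, limma unadjusted p = 0.325). Wdr75 had 39.5 and 63.9 scaled CPM at 1 week, against 108 and 33.2 on DMBA. In Utp15 and Wdr75 both 1-week libraries were above on-DMBA replicate 2, and in Wdr43 only replicate 2 was. Heatr1 had 85.6 and 154 scaled CPM at 1 week, against 232 and 108 on DMBA, with on-DMBA replicate 2 above 1-week replicate 1. Utp18, a WD-repeat protein of the processome, had 29.4 and 61.5 scaled CPM at 1 week, against 67.6 and 32.8 on DMBA, and its 1-week replicate 2 was at 0.91 of on-DMBA replicate 1. Utp20, a large scaffold protein, had 35.3 and 61.8 scaled CPM at 1 week, against 202 and 33.6 on DMBA. Its 1-week replicate 1 and on-DMBA replicate 2 were nearly equal. Utp14a, which activates a helicase of the particle in yeast, had 16.1 and 31.8 scaled CPM at 1 week, against 55.3 and 24.1 on DMBA, and Nop14 had 14.5 and 18.1 scaled CPM at 1 week, against 62.9 and 13.6 on DMBA. Rrp12, an export factor of both subunits in yeast, had 22.7 and 23.1 scaled CPM at 1 week, against 106 and 14.5 on DMBA, with its 1-week levels equal within 1.02-fold. Tsr1, which acts in late maturation of the small subunit, had 26.6 and 51.3 scaled CPM at 1 week, against 118 and 26.6 on DMBA. The median log2 difference of the 10 genes was -0.64 with all 4 libraries and 0.40 without on-DMBA replicate 1.

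Bop1, Pes1 and Wdr12 form a complex needed for the large subunit. Bop1 had 37.4 and 40.5 scaled CPM in the 1-week libraries, against 70.5 and 20.3 in the on-DMBA libraries. It was the only one of the 38 genes with a positive value between the groups, a log2 difference of 0.04 (SE 0.73, limma unadjusted p = 0.962), and the sign of that value changed with scaling and library, as given in the closing part. Pes1 had 78.9 and 105 scaled CPM at 1 week, against 220.2 and 65.1 on DMBA, in the same order of libraries as Bop1. Wdr12 had 19.4 and 30.5 scaled CPM at 1 week, against 76.4 and 22.1 on DMBA, with its minimum at 1 week instead. Rrs1, which brings the 5S ribonucleoprotein into the large subunit in yeast, had 18.6 and 20.5 scaled CPM at 1 week, against 90.8 and 19 on DMBA. Its 3 lower libraries were close to each other, and it gave a log2 difference of -1.07 (SE 0.85, limma unadjusted p = 0.26). Nop2, an RNA methyltransferase, had 44.5 and 67.9 scaled CPM at 1 week, against 150.4 and 40.7 on DMBA. Nop16 had 16.9 and 27.4 scaled CPM at 1 week, against 65 and 17.8 on DMBA, and Nip7 had 37.7 and 56.6 scaled CPM at 1 week, against 90.8 and 37.2 on DMBA. In these 3 genes the ratio of 1-week replicate 1 over on-DMBA replicate 2 was between 0.95 and 1.09.

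Between the groups no gene passed in limma. With limma on all 4 libraries, 0 of the 38 genes were called at an adjusted p under 0.05, and each had an adjusted p of 0.9997. None of the 15419 genes tested was called (0% in each direction), and 2.28% (higher) and 0.195% (lower) reached an unadjusted p below 0.05. At that level 0 of the 38 were found by limma, edgeR or DESeq2, where edgeR found 1.49% of genes tested higher and 0.272% lower, and DESeq2 2.50% higher and 1.15% lower. After adjustment edgeR called 0% of genes and DESeq2 called 0.104% higher and 0.0195% lower, none of the 38 among them. The log2 difference was below 0 for 37 of the 38 genes and above it for Bop1, with a median of -0.68, against -0.02 over all genes tested. With 2 libraries a group, the smallest two-sided p of an exact permutation test is 0.333.

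The sign of this median depended on which on-DMBA mouse was kept. Without on-DMBA replicate 1 it was 0.43, with 36 genes above 0 and Ubtf and Utp14a below, and limma called 0 of the 38 genes, against 2.35% of genes tested called higher and 0.999% lower. Myc alone reached an unadjusted p below 0.05, where 5.73% of genes tested did so in the higher direction. When on-DMBA replicate 2 was left out, it was -1.78, and 26 of the 38 genes were called lower and 0 higher, against 10.0% of genes tested called lower and 14.3% called higher. These fits set 2 mice against 1 and assume that the lone mouse varies like the other group. On-DMBA replicate 1, the lone mouse of the last fit, had far lower fibroblast, leukocyte and endothelial marker sums than both 1-week mice. On-DMBA replicate 2, the lone mouse of the other fit, had a far lower epithelial marker sum than both, 549.9 scaled CPM against 4492 and 3510.

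**Figure D2:**
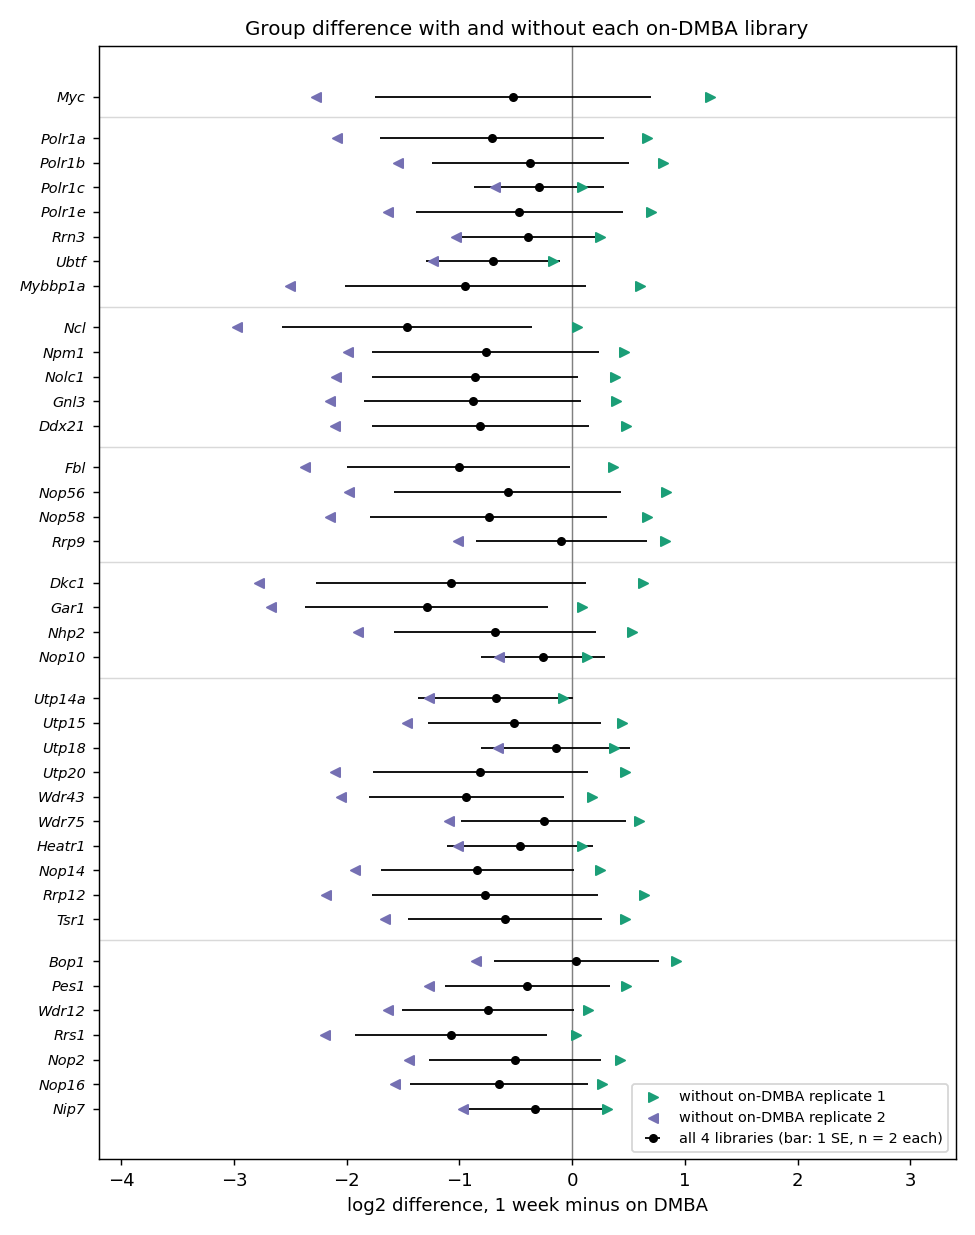
Log2 difference of (scaled CPM + 0.5), 1 week minus on DMBA, for each of the 38 genes. Black points with bars are the limma values with 1 SE from 2 mice per group, and the triangles come from fits that lack 1 on-DMBA library, replicate 1 (green) or replicate 2 (purple). The purple triangles lie left of 0 in all 38 rows and the green triangles right of it in 36, with Ubtf and Utp14a the exceptions.

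The single libraries show the pattern that the group test averages over. The median log2 difference of the 37 ribosome biogenesis genes from on-DMBA replicate 1 was -2.08 for 1-week replicate 1 and -1.51 for 1-week replicate 2, with all 37 lower in both. Over all genes tested, 46.9% and 49.5% were higher at 1 week in these comparisons, with medians of -0.14 and -0.02. From on-DMBA replicate 2 the median of the 37 genes was 0.08 for 1-week replicate 1, with 22 genes higher and 15 lower. For 1-week replicate 2 it was 0.68, with 37 higher. Of all genes tested, 49.2% and 59.3% were higher in these last 2 comparisons. Within the 1-week group, all 37 were higher in replicate 2 than in replicate 1, by a median log2 difference of 0.60, where 62.9% of genes tested were higher by a median over all of 0.22. In 23 of the 38 genes, Myc included, both 1-week libraries lay above on-DMBA replicate 2 and below on-DMBA replicate 1, an arrangement found in 17.7% of genes tested.

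**Figure D3:**
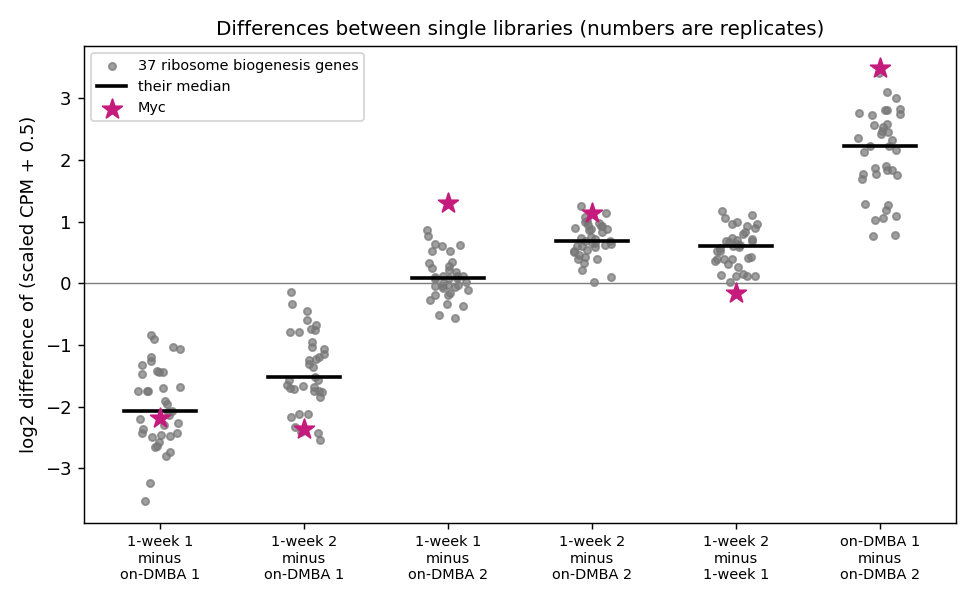
Log2 difference of (scaled CPM + 0.5) between pairs of single libraries. Grey points are the 37 ribosome biogenesis genes, black lines their median and stars Myc. The grey points lie below 0 against on-DMBA replicate 1 and around or above 0 against on-DMBA replicate 2, and the star alone lies below 0 in the comparison of the 1-week libraries.

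The rest of the pathway was described with further lists, in none of which limma called a gene. Without overlap of the groups, 14.0% of all genes tested were higher and 9.14% lower at 1 week. The highest level was in on-DMBA replicate 1 for 41.7% of all genes tested. In the further small subunit list 39 of 40 genes were highest in on-DMBA replicate 1, with Utp23, named after its values were seen, as the exception. Their median log2 difference was -0.58, and 1 of the 40, Riok1, was lower without overlap and 0 were higher. Utp6 had 59.7 and 111 scaled CPM at 1 week, against 159 and 84.5 on DMBA, Bms1, a GTPase of the processome, had 52.7 and 90.1 at 1 week, against 196 and 72.3 on DMBA, and Wdr3 had 39.7 and 71.7 at 1 week, against 110.3 and 70.7 on DMBA. In the further large subunit list all 43 were highest in on-DMBA replicate 1 and the median was -0.56. Of the 43, Nmd3 and Ddx31 were lower without overlap and 0 were higher, and Riok1 and Ddx31 were named after their values were seen. Mdn1, a very large ATPase that releases assembly factors, had 70.0 and 120.1 scaled CPM at 1 week, against 406 and 79.9 on DMBA, and Nsa2 had 95.3 and 156 at 1 week, against 254 and 146 on DMBA. Nmd3, the export adaptor of the large subunit, had 18.1 and 31.9 scaled CPM at 1 week, against 81 and 39.5 on DMBA, a log2 difference of -1.22 (SE 0.63, limma unadjusted p = 0.109). Rsl24d1 had 40.2 and 60.3 scaled CPM at 1 week, against 123 and 58 on DMBA.

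Further polymerase I genes were highest in on-DMBA replicate 1 in 11 of 13 cases, with a median of -0.36, and RNA polymerase III genes in 18 of 22, with a median of -0.46. Over all genes tested, 41.7% were highest in that library. Polr1d had 88.1 and 132 scaled CPM at 1 week, against 212 and 80.9 on DMBA, and Taf1d, of the promoter selectivity factor, had 37.7 and 69.6 at 1 week, against 177 and 38 on DMBA. Polr2e, a subunit shared by all nuclear RNA polymerases, had 26.1 and 33.1 scaled CPM at 1 week, against 76.9 and 35.7 on DMBA and Taf1b 15 and 20.0 at 1 week, against 36.6 and 22.3 on DMBA, and neither passed. These 2 of 13 were lower at 1 week without overlap and 0 higher. Of the 22 polymerase III genes, Polr3a and Gtf3c4 were lower without overlap and Brf2 higher, named after their values were seen, against the same shares of 9.14% and 14.0% over all genes tested. Gtf3c1, of the polymerase III factor TFIIIC, had 122 and 134 scaled CPM at 1 week, against 393 and 93 on DMBA, Bdp1 had 50.5 and 83.3 at 1 week, against 158 and 67.1 on DMBA, Polr3b had 25.8 and 37.5 at 1 week, against 97.4 and 31.6 on DMBA and Gtf3c6 had 5.16 and 8.7 at 1 week, against 20.7 and 7.9 on DMBA. All 15 genes of the RNA exosome and precursor trimming were highest in on-DMBA replicate 1, with a median of -0.42. Xrn2, an exonuclease, had 117 and 222 scaled CPM at 1 week, against 313 and 184 on DMBA, Skiv2l2, the exosome helicase, had 35.8 and 49.8 at 1 week, against 106 and 44.2 on DMBA, Dis3 had 11.9 and 19.7 at 1 week, against 77.8 and 13.5 on DMBA and Exosc7 had 8.91 and 19.1 at 1 week, against 51.1 and 14 on DMBA.

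MYC-responsive genes outside the nucleolus were highest in on-DMBA replicate 1 in 27 of 31 cases, against 41.7% of all genes tested. Odc1, Nme2, Umps and Nampt, named after their values were seen, were not. The median of the 31 genes was -0.34, and 0.67 without on-DMBA replicate 1. Of the 31, 1 gene, Ccnd2, was lower at 1 week without overlap, against 9.14% of all genes tested, and 0 were higher, against 14.0%. Eif4a1, a translation initiation helicase, had 765 and 1203 scaled CPM at 1 week, against 1929 and 573 on DMBA. Ldha, lactate dehydrogenase, had 513 and 667 scaled CPM at 1 week, against 1997 and 281 on DMBA. Ccnd2, cyclin D2, had 35.9 and 60.9 scaled CPM at 1 week, against 185 and 76.1 on DMBA, a log2 difference of -1.33 (SE 0.65, limma unadjusted p = 0.0945). C1qbp, a mitochondrial matrix protein, had 10.2 and 14.7 scaled CPM at 1 week, against 69.6 and 10.4 on DMBA.

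Proliferation genes had a similar order of libraries. All 16 were highest in on-DMBA replicate 1, against 41.7% of all genes tested. Of the 16, 14 were next highest in 1-week replicate 2, an order that 24.8% of all genes tested had. Their summed level was 546 and 909.7 scaled CPM at 1 week, against 2812 and 419.8 on DMBA. Relative to on-DMBA replicate 1, the sum of the proliferation genes was 0.194 and 0.324 in the 1-week libraries and 0.149 in on-DMBA replicate 2, and that of the 37 ribosome biogenesis genes was 0.218 and 0.353 in the 1-week libraries and 0.215 in on-DMBA replicate 2. On the same scale the epithelial markers were at 0.0967 and 0.0755 in the 1-week libraries and 0.0118 in on-DMBA replicate 2, so their sum differed between the libraries by more. The sum had the 1-week mice in the other order, as did 5 of the 10 markers, while Krt5, Krt15, Itga6, Epcam and Cdh1 were higher in 1-week replicate 2. Top2a, a topoisomerase of dividing cells, had 78.8 and 176 scaled CPM at 1 week, against 582 and 74.7 on DMBA, Mki67 had 53.3 and 88 at 1 week, against 572 and 40.4 on DMBA, and Mcm3, of the replicative helicase, had 39.2 and 58.9 at 1 week, against 137 and 40.0 on DMBA. Whether the share of dividing cells set the level of the ribosome biogenesis genes was not tested.

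**Figure D4:**
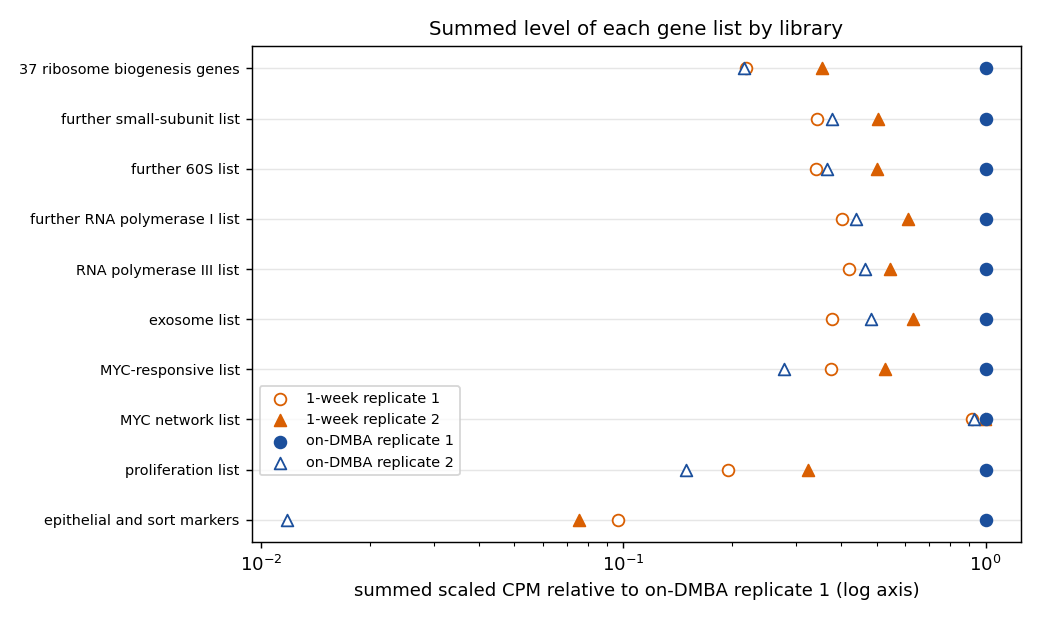
Summed scaled CPM of each gene list in each library relative to on-DMBA replicate 1, on a log axis, with 1-week libraries in orange and on-DMBA libraries in blue. The 37 ribosome biogenesis genes lie between 0.215 and 0.353 in the 3 other libraries, close to the proliferation list at 0.149 to 0.324, while the MYC network list stays at 0.916 or above and the epithelial markers at 0.0967 or below. The MYC network sum leaves out Myc and pools genes that differed in opposite directions between the on-DMBA libraries, such as Mxd4 and Mycl1.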

How the data were processed

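RNA of 4 mice, 2 per group, was depleted of ribosomal RNA and sequenced with a stranded protocol, per the labels' protocols. Per the submitters' processing notes, mm9, HTSeq, TopHat2 2.1, CASAVA 1.8.2 and edgeR 3.2.3 were used, in roles that are not stated. Neither the annotation nor the strand setting of the counting is given there. The authors deposited 1 table of a normalised signal per gene, called CPM, whose columns sum to between 867697 and 1149287, so it is named scaled CPM here. All values (100%) were whole multiples of 1 step per library within 0.01 reads, which gave 5551937 and 7662159 reads at 1 week and 9678682 and 5635945 on DMBA. A floor of 3 reads is 0.356 to 0.538 scaled CPM. All 38 genes were above the filter in every library.

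The 15419 genes that reached 1 scaled CPM in 2 or more libraries were fitted with limma 3.58.1 in R 4.3.3 on log2(scaled CPM + 0.5), with a variance trend. The test was two-sided, p was adjusted over these genes by Benjamini-Hochberg, and the threshold was 0.05. Differences are 1 week minus on DMBA, and for low genes they understate the change. The code was tested on simulated data. Alternatives were pseudocounts, filters, scalings, variance models, a replicate block, leaving out each library, and count tests on the recovered reads with DESeq2 1.42.0 and with the quasi-likelihood test of edgeR 4.0.16. Genes, lists and tests were chosen with earlier results of these data known. By a rule set with them, all 38 genes were given with every value, full statistics went to Myc, Ncl, Npm1, Fbl, the 5 smallest p and both extremes, and of each other pathway list the 2 most abundant and the 2 genes of smallest p were named. Processed pseudogenes can share reads with Npm1, Ncl and other abundant genes, so these values are uncertain.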

Additional observations from a re-analysis of the deposited data

How the results depend on the processing

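The lowest count of the 38 genes in any library was 18 reads, and there were 2 mice per group. The median log2 difference of the 38 genes was between -0.60 and -0.74 under both other pseudocounts, both other filters, both other scalings, both variance models and the replicate block, and the count tests gave -0.99 (edgeR) and -1.04 (DESeq2). Leaving out single libraries moved it from -1.78 to 0.43, the number of the 38 genes called from 0 to 26 and the number of all genes called from 0 to 3761. Of all genes, DESeq2 called 19, where limma called 0. Mouse identifiers differ, so the replicate numbers pair nothing; the deviations of same-numbered libraries correlated at 0.015 over genes, and a replicate block gave 288 calls over all genes and 0 among the 38. With a filter of 5 scaled CPM, Gar1 was not tested. Bop1, at 0.04 with all libraries, was at -0.019 with median ratio scaling, -0.15 in edgeR and -0.19 in DESeq2. For 36 genes the log2 difference changed sign when 1 library was left out, in 35 of them without on-DMBA replicate 1. For the transcription factor the values ran as Myc -2.27 to 1.23. For the polymerase group the values ran as Polr1a -2.08 to 0.67, Polr1b -1.54 to 0.80, Polr1c -0.68 to 0.086, Polr1e -1.63 to 0.70, Rrn3 -1.03 to 0.24, Mybbp1a -2.50 to 0.60. For the nucleolar group the values ran as Ncl -2.97 to 0.040, Npm1 -1.99 to 0.46, Nolc1 -2.10 to 0.38, Gnl3 -2.15 to 0.39, Ddx21 -2.10 to 0.48. For box C/D the values ran as Fbl -2.37 to 0.36, Nop56 -1.98 to 0.83, Nop58 -2.15 to 0.67, Rrp9 -1.01 to 0.82. For box H/ACA the values ran as Dkc1 -2.78 to 0.63, Gar1 -2.67 to 0.090, Nhp2 -1.90 to 0.53, Nop10 -0.65 to 0.13. For the small subunit the values ran as Utp15 -1.46 to 0.44, Utp18 -0.67 to 0.38, Utp20 -2.10 to 0.47, Wdr43 -2.05 to 0.18, Wdr75 -1.09 to 0.59, Heatr1 -1.01 to 0.087, Nop14 -1.92 to 0.24, Rrp12 -2.18 to 0.64, Tsr1 -1.66 to 0.47. For the large subunit the values ran as Bop1 -0.85 to 0.92, Pes1 -1.27 to 0.48, Wdr12 -1.63 to 0.14, Rrs1 -2.19 to 0.038, Nop2 -1.44 to 0.43, Nop16 -1.57 to 0.27, Nip7 -0.97 to 0.31.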
